A study of Sus scrofa with 24 samples.

Results

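Interleukins are small secreted proteins with which leukocytes and vessel wall cells signal to each other, and their receptors are transmembrane chains that mostly work in pairs. The members described here were the genes whose name on the array began with IL and a number. The name rule found 29 probes of 26 genes among 6122 gene symbols that could be named on the array, of which 17 are ligands and 9 are receptor chains. Where a gene had more than 1 probe, the probe with the highest mean signal stood for it. The ligands were IL1A, IL2, IL4, IL6, IL7, IL8, IL10, IL12A, IL12B, IL13, IL15, IL16, IL17A, IL18, IL21, IL22 and IL27. The receptor chains were IL2RA, IL2RG, IL4R, IL6R, IL6ST, IL7R, IL12RB2, IL13RA1 and IL17RB. Some interleukin genes that the array lists under other names, such as IL1RN and IL17RA, are described beside the members and are not counted among them. Others, IL1B, IL33 and IL10RA among them, were not analysed here.

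The study measured gene expression with Agilent arrays of 2 colours in 24 vein samples of pigs with an arteriovenous graft of the kind used for haemodialysis, which joins an artery to a vein. The design names 3 sites: the venous anastomosis, where the graft joins the vein, the vein segment downstream of it, and the external jugular vein as control. Samples were taken 5 and 14 days after the graft was placed, with 4 replicates in each of the 6 groups. The labels give no age, breed, sex or drug, and the design describes 4 independent experiments with different biological replicates, without stating whether the samples of a number come from a single pig.

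All control samples were labelled with Cy3 and all graft vein samples with Cy5, so dye and site cannot be told apart. Replicates 1 and 2 were on other slides than replicates 3 and 4, and their scans were read with another version of the extraction protocol. Control and anastomosis of a number and day shared an array, and the downstream sample was on another. The 2 days were on different slides in replicates 1, 2 and 3, and were also scanned on different dates in replicates 1 and 2. Only in replicate 4 were both days on 1 slide, so in the others day and slide cannot be told apart. Between 56.9 and 80.2% of probes per sample lay well above background. In the 8 control samples all 6 measured contractile smooth muscle markers and all 5 endothelial markers were well above background. At the day 5 anastomosis limma called 19.3% of the 33390 features tested, at an adjusted p under 0.05. There the contractile list had a median difference of -2.17 (log2) with 4 of 6 called lower. The macrophage list had one of 0.61 with 3 of 8 called higher, and the endothelial list one of 0.55 with 2 of 5 called higher. At the day 14 anastomosis, where 8.81% of all features were called, the contractile median was -1.12 with 0 of 6 called by limma and 3 at an unadjusted p under 0.05. The macrophage median there was 1.14 with 4 of 8 called higher, and the endothelial median 0.30 with 1 of 5 called higher. In the day 5 downstream vein, where 8.22% of all features were called, these medians were -2.00 with 2 of 6 called lower, 0.57 with 3 of 8 called higher, and 0.73 with 2 of 5 called higher. The fibroblast, adipocyte and B cell lists had 0 genes called at the day 5 anastomosis, of 2, 6 and 2 measured, with 1, 1 and 0 at an unadjusted limma p under 0.05. The part of these cell types in the interleukin results was not tested, and in whole tissue fewer cells of a type and less RNA per cell cannot be told apart.

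Interleukins are known in injured vessels as signals of the first days, when platelets, neutrophils and monocytes enter the wall. IL-1α and IL-18 belong to the interleukin-1 family, IL-6 and IL-27 signal through the shared chain gp130 (IL6ST), and IL-8 draws neutrophils through CXCR2. IL-4 and IL-13 act through IL-4Rα on macrophages and mesenchymal cells, and IL-2, IL-7, IL-15 and IL-21 share the common gamma chain (IL2RG).

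Of the 26 members, 21 passed the filter, which asked for a signal well above background in at least 4 of 24 samples, namely 12 of 17 ligands and all 9 receptor chains. The 5 that did not were ligands made chiefly by T cells or dendritic cells. IL21, the follicular helper T cell cytokine, and IL22, which acts on epithelia, were well above background in 0 of 24 samples. The interleukin-12 subunit IL12A was so in 1 sample, and IL4 and IL17A in 2 samples each. Of the other 21, 12 were well above background in all 24 samples, and IL12B and IL13 in only 8. No member was saturated on any array. All values below are normalised log2 intensities of the sample's own colour, and a difference of 1 is a doubling of the signal.

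Few members differed between sites. Differences were estimated with limma over all 24 samples, with the replicate number within a day as a block, and called at a Benjamini-Hochberg adjusted p under 0.05 over all features. Of the 33390 features tested, 5786 stood for a gene symbol, and the others were single probes that stood for none. A share over all features is therefore not a share over named genes. Against the control, 1 of 21 members was called at the day 5 anastomosis, where 19.3% of all features were called, and the member median was 0.14 against 0.002 for all features. At the day 14 anastomosis 2 of 21 were called against 8.81% of all features, with a member median of 0.01. In the downstream vein at day 5 the count was 1 of 21 against 8.22%, with a median of 0.11. In the downstream vein at day 14 limma called 0 of 21 members against 0.922% of all features, with 3 at an unadjusted p under 0.05. The 4 calls were IL4R higher at the day 5 anastomosis, IL17RB higher in the day 5 downstream vein, and IL1A and IL6ST lower at the day 14 anastomosis. Replicates 1 and 2 alone gave 0 member calls in each of these comparisons, in the same order, where limma called 2, 1, 0 and 0 of all features. Replicates 3 and 4 alone gave 2, 4, 2 and 1 member calls, where 3966, 3263, 3354 and 1805 of all features were called. Median centring of the arrays in place of loess gave 8, 6, 6 and 4, where 10970, 13717, 8619 and 10133 of all features were called. It also moved the median of all features by 0.10, 0.15, 0.10 and 0.18 in these comparisons, and the share of higher features among all calls from 46.9, 54.3, 39.1 and 70.1% to 80.7, 74.8, 83.1 and 77.4%.

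**Figure D1:**
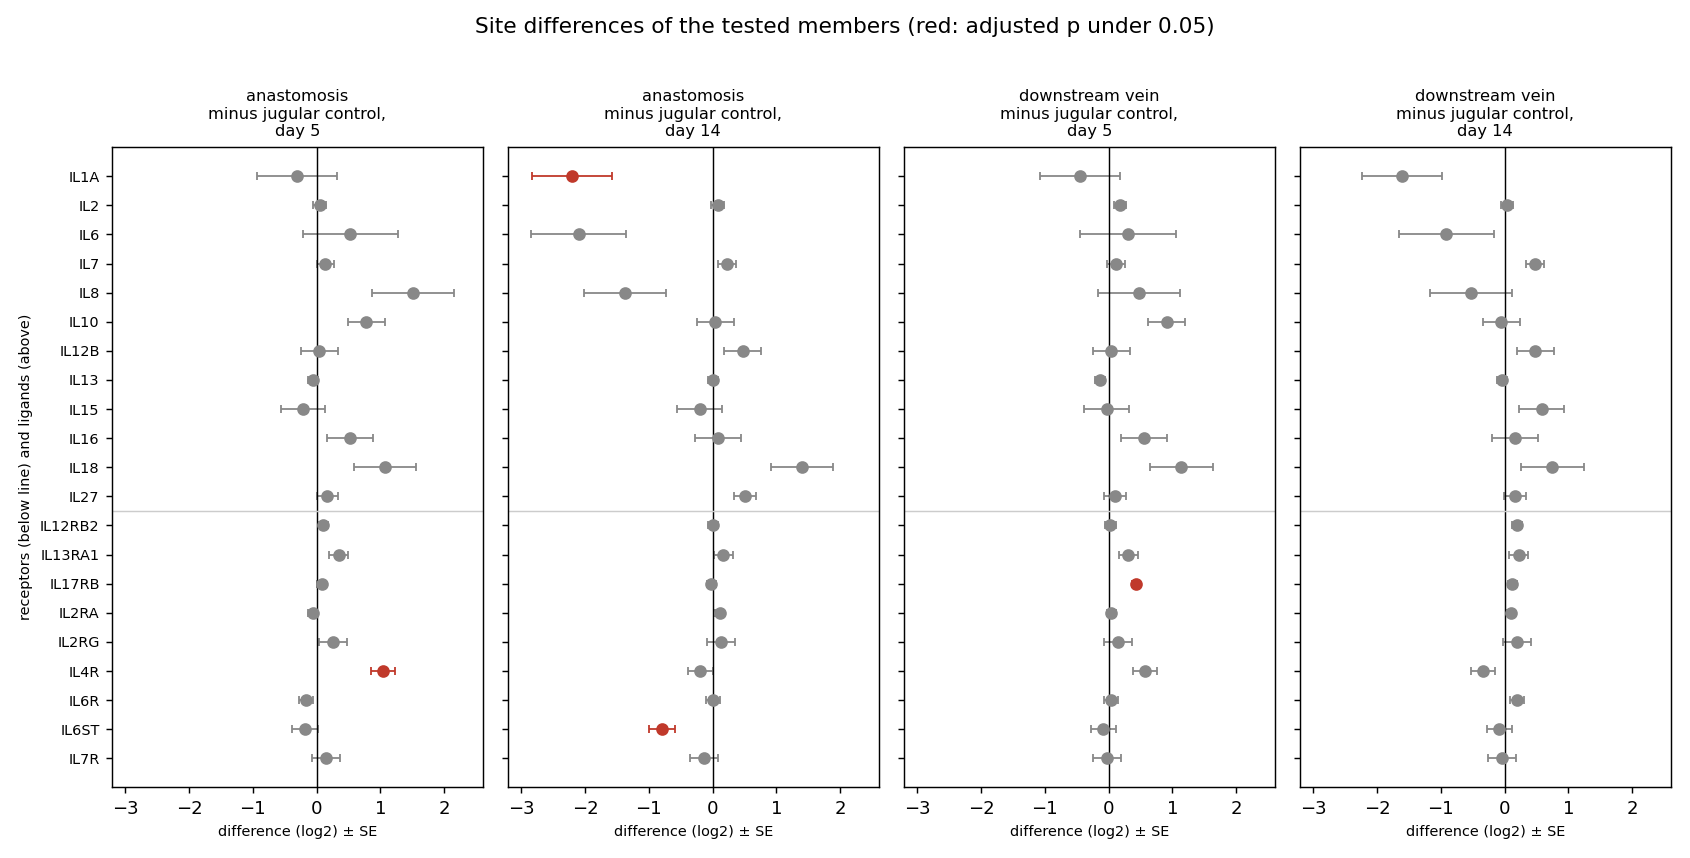
Difference of each tested member from the jugular control (log2, horizontal axis) with its standard error, for anastomosis and downstream vein at each day, with 12 ligands above the grey line and 9 receptor chains below it. Red points passed an adjusted p of 0.05, and only IL4R (1.04), IL1A (-2.20), IL6ST (-0.79) and IL17RB (0.43) did.

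Between anastomosis and downstream vein no member was called. Limma called 0 of 21 members at day 5 and 0 of 21 at day 14, with 2 members at an unadjusted p under 0.05 on each day, and called 0% of all features. Those of day 5 were IL17RB and IL4R, and those of day 14 were IL6ST, lower at the anastomosis (-0.71 ± 0.20 SE, limma adjusted p = 0.174), and IL15 (-0.78 ± 0.35, limma adjusted p = 0.340).

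IL4R, the chain that binds IL-4 and pairs with the common gamma chain or IL-13Rα1, rose at the day 5 anastomosis. Its signal in the 4 day 5 controls was 12.83, 12.39, 12.88 and 11.95, in the order of replicates 1 to 4. The day 5 anastomoses gave 14.10, 13.34, 13.63 and 13.13, so that each of these samples lay above every control. The difference was 1.04 ± 0.19 (SE), or 2.05-fold, with an adjusted p of 0.00201, and 4 of 4 pairs of the same number went the same way, by 0.75 to 1.27. In the day 5 downstream vein the values were 13.41, 12.73, 13.33 and 12.84, which overlap the controls, with a difference of 0.57 ± 0.19 that missed the threshold (adjusted p = 0.0728). The difference at the anastomosis was 1.11 in replicates 1 and 2 (adjusted p = 0.133) and 0.97 in replicates 3 and 4 (adjusted p = 0.0353).

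The rise of IL4R was not seen at day 14. The day 14 controls gave 12.72, 13.97, 13.51 and 12.58, and the anastomosis 13.04, 13.38, 12.87 and 12.72, so the groups overlapped with a difference of -0.19 ± 0.19 (adjusted p = 0.575). Only with median centring of the arrays was this difference positive and called (0.61, adjusted p = 0.0477). The change of the site difference between the days was -1.23 ± 0.26, with an unadjusted p of 0.00032 and an adjusted p of 0.372. The controls of day 14 averaged 13.19 ± 0.66 (SD, n = 4) against 12.51 ± 0.43 at day 5, and the anastomoses 13 ± 0.28 against 13.55 ± 0.42.

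IL4R was measured by 2 probes, which share no run of 12 bases. The last 30 bases of each probe are printed here, as deposited, because both probes gave the called difference. Capitals mark AATAAA, the usual polyadenylation signal near the 3′ end of a messenger RNA.
IL4R, probe used: tgtataAATAAAgattctttatctcctttt
IL4R, other probe: tgcaaatcacccccagcaatgttcagagct
The first of these probes holds these letters and the other does not hold them in its last 30 bases. With all probes fitted separately, the probe used gave 1.04 ± 0.19 at the day 5 anastomosis and the other gave 0.80 ± 0.16 (adjusted p = 0.00375). At day 14 the other probe gave -0.02 ± 0.16 (adjusted p = 0.954). In the last 30 bases AATAAA occurred in 9.35% of the 43603 array probes and in 4 of the 29 member probes, and its reverse complement TTTATT in 2.35% and in 0. The position of the probes in the genome is not given here.

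**Figure D2:**
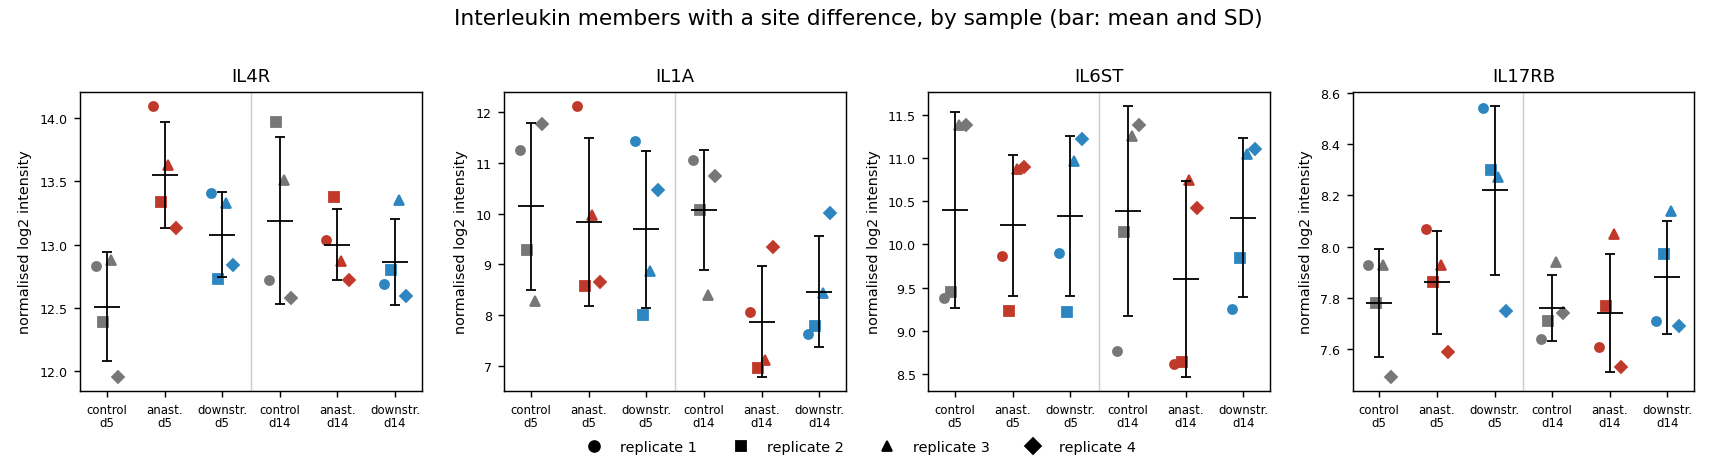
Normalised log2 intensity of IL4R, IL1A, IL6ST and IL17RB in each of 24 samples, by site and day (grey, jugular control; red, anastomosis, anast.; blue, downstream vein, downstr.; d5 and d14, days 5 and 14), with replicate numbers as symbols and a bar for mean and SD (n = 4). All 4 IL4R values of the day 5 anastomosis lie above all day 5 controls, and IL6ST separates by replicate number, with 8.61 to 10.14 in replicates 1 and 2 and 10.42 to 11.39 in replicates 3 and 4.

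IL13RA1, the IL-13 chain that pairs with IL-4Rα, had a mean of 7.25 ± 0.11 (SD, n = 4) in day 5 controls, 7.60 ± 0.38 at the anastomosis and 7.57 ± 0.57 downstream, with differences of 0.35 ± 0.15 (SE, adjusted p = 0.126) and 0.31 ± 0.15 (adjusted p = 0.207). Its higher values came from replicates 3 and 4: at the downstream vein of day 5 these were 8.08 and 8.05, against 7.12 and 7.02 in replicates 1 and 2. Within replicates 3 and 4 the anastomosis difference was 0.55 (adjusted p = 0.0374) and the downstream one 0.72 (adjusted p = 0.0223). The ligands IL4 and IL13 were near background: IL4 was well above it in 2 of 24 samples and IL13 in 8, with IL13 spanning 5.79 to 6.38. IL13RA2, a decoy receptor of IL-13 that the array lists only by gene number, was higher in all 4 downstream samples than in the control of the same number at day 14, by 1.66 ± 0.50 on average (adjusted p = 0.134). Without replicate 2 it was 1.73 with an adjusted p of 0.0274. Its other 2 probes gave 1.53 ± 0.47 and 0.80 ± 0.28 there (adjusted p = 0.140 and 0.192).

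IL1A, the ligand IL-1α that dying cells release, fell at the day 14 anastomosis. The day 14 controls were at 11.06, 10.08, 8.40 and 10.74 and the anastomoses at 8.06, 6.95, 7.12 and 9.35. Single samples of the groups overlap, but each anastomosis lay below the control of its own number, with pair differences of -3.13 to -1.28. The difference was -2.20 ± 0.63 (SE), which is 4.59-fold lower, with an adjusted p of 0.0427. The downstream vein at day 14 gave 7.62, 7.78, 8.44 and 10.02, with 3 of 4 pairs lower and a difference of -1.61 ± 0.63 (adjusted p = 0.240). Without each of the replicates in turn the anastomosis difference was -1.89 to -2.50 with adjusted p from 0.0554 to 0.171. Without the replicate block its adjusted p was 0.306, and without the day 14 control of replicate 2 the difference was -1.93 (adjusted p = 0.0971).

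At day 5 the sites did not order IL1A. The controls were at 11.26, 9.28, 8.27 and 11.76 and the anastomoses at 12.13, 8.58, 9.97 and 8.66, with a difference of -0.31 ± 0.63 (adjusted p = 0.811). The pair differences ran from 1.70 in replicate 3 to -3.10 in replicate 4. Over all 24 samples the signal of IL1A spanned 6.95 to 12.13, a 36.4-fold range.

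IL18, a second ligand of the interleukin-1 family, processed by caspase-1 and made by macrophages, was not called in any comparison. Day 5 controls gave 9.41, 8.65, 8.69 and 8.91, and anastomoses 10.04, 9.49, 10.06 and 10.35, so that every anastomosis lay above every control. The difference was 1.07 ± 0.49 (adjusted p = 0.151). The day 14 anastomoses gave 11.26, 10.27, 10.64 and 11.53, and 3 of 4 controls lay between 8.84 and 9.27. The remaining control, of replicate 2, was at 10.97, above its own anastomosis. The day 14 difference was 1.40 ± 0.49 (adjusted p = 0.0889). Without that control, left out after its high value was seen, it was 2.04 with an adjusted p of 0.00959. A dimmer second probe, assigned to IL18 by an older annotation and well above background in 14 of 24 samples, gave 0.09 ± 0.07 at day 5 and 0.13 ± 0.07 at day 14, so the probes disagree in size. In the day 5 downstream vein that dimmer probe gave 0.27 ± 0.07 (adjusted p = 0.0305), where the probe used gave 1.14 ± 0.49 (adjusted p = 0.162).

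Receptors and antagonists of the interleukin-1 family carry other names on this array and were found by description. IL1R1, the signalling receptor, did not pass in either site or day (0.29 ± 0.21 at the day 5 anastomosis, -0.31 ± 0.21 at day 14). IL1R2, the decoy receptor, was at 10.66, 8.55, 8.55 and 9.13 in day 5 controls and at 12.36, 10.56, 9.83 and 10.48 at the anastomosis, higher in 4 of 4 pairs, by 1.59 ± 0.66 (adjusted p = 0.112). IL1RN, the receptor antagonist, was at 11.04, 9.39, 8.84 and 9.72 in the controls and at 14.07, 11.71, 10.52 and 10.45 at the anastomosis, also higher in 4 of 4 pairs, by 1.94 ± 0.94 (adjusted p = 0.176). Both missed the threshold. At day 14 the control of replicate 2 had 13.84 for IL1R2 and 14.19 for IL1RN, the highest of the 8 controls in each case.

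Of 21 listed genes of interleukin-1 processing and signalling, 12 were tested. Of these, 3 of 12 were called at the day 5 anastomosis against 19.3% of all features, with IRAK4, a kinase of the receptor complex, higher (0.42 ± 0.10, adjusted p = 0.0120) and NFKBIZ, an inducible nuclear IκB protein, lower (-2.02 ± 0.55, adjusted p = 0.0195). The third was TRAF6, an adaptor of the same complex, lower by 0.47 (-0.47 ± 0.12), which turned to 0.13 higher with median centring. At day 14, 2 of 12 were called against 8.81% of all features, both lower: NFKBIZ (-1.93 ± 0.55, adjusted p = 0.0441) and RELA, a subunit of NF-κB (-0.83 ± 0.15, adjusted p = 0.00669). Over 16 alternative settings the calls of NFKBIZ held in 8 at day 5 and 5 at day 14. Those of IRAK4, TRAF6 and RELA held in 12, 9 and 11. None of the 12 was called in the downstream vein, where 3 had an unadjusted p under 0.05 at day 5 and 1 at day 14. Of all features 8.22 and 0.922% were called there.

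IL6, a ligand of fibroblasts, smooth muscle and macrophages that signals through gp130, ranged 24.3-fold over the samples and showed no site order at day 5. The day 5 controls were at 16.43, 13.99, 13.76 and 16.45 and the anastomoses at 16.21, 16.23, 16.13 and 14.21. The difference was 0.53 ± 0.75 (adjusted p = 0.712), with 2 pairs higher and 2 lower. The day 14 controls were at 14.46, 17.48, 15.49 and 15.32 and the anastomoses at 13.43, 13.35, 14.07 and 13.48. Every day 14 anastomosis lay below every control, yet the difference of -2.10 ± 0.75 did not pass (adjusted p = 0.0966). The downstream vein of day 14 spread from 12.87 to 17.13 and overlapped both.

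The day 14 anastomoses were the most uniform of the 6 groups for IL6, with an SD of 0.33 where the other groups had 0.99 to 1.90. Between the days its anastomosis values differed by -2.11 ± 0.45, with no overlap between 14.21 to 16.23 at day 5 and 13.35 to 14.07 at day 14. This had an unadjusted p of 0.00129 and an adjusted p of 0.291, in a comparison that called 0.00599% of all features. The deposited value table gave -2.08 for it with an adjusted p of 0.0212, where 3074 of all features were called. IL6 too has 2 probes without a shared run of 12 bases, and their last 30 bases are shown because they gave the same pattern.
IL6, probe used: tacctcaAATAAAttgctaacttatacgta
IL6, other probe: tgaggcaaaagggaaagaatccagacaaag
The other probe gave -1.81 ± 0.64 for the day 14 anastomosis (adjusted p = 0.0931) and -1.65 ± 0.37 between the days.

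IL6ST, the signalling chain gp130 that IL-6 and its relatives share, fell at the day 14 anastomosis by 0.79 (-0.79 ± 0.20 SE, adjusted p = 0.0248). The controls were at 8.76, 10.14, 11.26 and 11.39 and the anastomoses at 8.61, 8.64, 10.75 and 10.42, lower in 4 of 4 pairs, with differences of -1.51 to -0.16. The groups overlap, and the level of the probe differed by replicate number: over all sites and days replicates 1 and 2 averaged 9.36 and replicates 3 and 4 averaged 11.06, without overlap. None of the other 20 tested members split in this way. Within replicates 1 and 2 the difference was -0.83 (adjusted p = 0.371) and within replicates 3 and 4 it was -0.74 (adjusted p = 0.0266). With median centring it was -0.22 (adjusted p = 0.463), without the day 14 control of replicate 2 it was -0.63 (adjusted p = 0.0671), and without the replicate block its adjusted p was 0.813. The call held without replicate 1 and was lost without replicate 2, 3 or 4. It was also lost in the deposited value table and with only the samples compared. Over 16 alternative settings it held in 7.

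At day 5 IL6ST gave -0.18 ± 0.20 at the anastomosis and -0.08 ± 0.20 downstream, neither of which passed. Its probe ends in aaagactagttcctgttacaacttcagaag, shown because it carries this call, and AATAAA does not occur there. IL6R, the chain that binds IL-6 itself, stayed within 6.55 to 7.44, with differences of -0.20 to 0.20 over the 6 site comparisons and none that passed.

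IL27, a heterodimeric cytokine of the same family made by antigen-presenting cells, was at 7.0, 6.73, 6.54 and 7.39 in the day 14 controls and at 7.47, 7.44, 6.96 and 7.85 at the anastomosis. All 4 pairs were higher, by 0.42 to 0.71, and the difference of 0.51 ± 0.17 missed the threshold (adjusted p = 0.0686). In the downstream vein it was 0.16 ± 0.17, with 2 pairs higher and 2 lower.

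Of 11 further genes of the interleukin-6 family, 4 were tested, and 2 were called at the day 5 anastomosis, where 19.3% of all features were called. LIF, a ligand of this family, was higher by 0.67 ± 0.15 (adjusted p = 0.00635), and LIFR, its receptor, lower (-0.42 ± 0.11, adjusted p = 0.0151). Over 4 other scalings LIFR gave -0.67 to -0.01. None of the 4 was called in the other site comparisons with the control, where 2, 1 and 1 had an unadjusted p under 0.05. These were the day 14 anastomosis and the downstream vein at days 5 and 14, where 8.81, 8.22 and 0.922% of all features were called. Of 19 JAK, STAT and SOCS genes, which carry signals from these receptors, 14 were tested. The calls were 2 of 14 at the day 5 anastomosis against 19.3% of all features, 1 of 14 at the day 14 anastomosis against 8.81%, and 1 of 14 in the day 5 downstream vein against 8.22%. At the day 5 anastomosis STAT5B, a transcription factor downstream of gamma chain cytokines, was higher (0.55 ± 0.16) and PIAS1, an inhibitor of STAT proteins, lower (-0.69 ± 0.15). STAT5B was also higher at the day 14 anastomosis (0.53 ± 0.16, adjusted p = 0.0494), and PIAS1 lower in the day 5 downstream vein (-0.57 ± 0.15, adjusted p = 0.0316). Over the 4 other scalings PIAS1 gave -0.72 to -0.04 at the anastomosis and -0.7 to -0.01 downstream. Over 16 alternative settings these PIAS1 calls held in 13 and 9, and those of STAT5B in 9 at day 5 and 6 at day 14. STAT3, the main mediator of gp130, gave 0.02 ± 0.13 at the day 5 anastomosis, and STAT6, that of IL-4Rα, gave -0.42 ± 0.15 (adjusted p = 0.0617).

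IL8, the neutrophil chemokine now named CXCL8, varied more than any other tested member. Its 24 values spanned 8.42 to 16.02, a 194-fold range, and its spread within groups lay at percentile 99.9 of all features. Day 5 controls were at 12.39, 10.70, 9.78 and 11.90 and anastomoses at 15.37, 12.46, 11.98 and 10.99. The first 3 pairs were higher by 2.98, 1.76 and 2.20 and the fourth was lower (-0.90). The difference was 1.51 ± 0.64 (adjusted p = 0.122), and without replicate 4 it was 2.32 with an adjusted p of 0.0455.

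At day 14 the difference of IL8 was negative. Controls were at 11.58, 16.02, 8.42 and 12.74, anastomoses at 10.21, 12.07, 8.51 and 12.50 and downstream samples at 10, 14.44, 8.50 and 13.70. The groups overlapped fully, with -1.37 ± 0.64 at the anastomosis (adjusted p = 0.204) and -0.53 ± 0.64 downstream. The change of the anastomosis difference between days was -2.88 ± 0.91, with an unadjusted p of 0.00676 and an adjusted p of 0.437. At day 14 samples of a number resembled each other across sites: replicate 3 was at 8.42, 8.51 and 8.50, and replicates 2 and 4 were between 12.07 and 16.02 at every site.

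The 2 IL8 probes, which share no run of 12 bases, gave like differences and are shown for that reason. Neither holds AATAAA in its last 30 bases.
IL8, probe used: ttgaatgacgtgaattttaaattaggacta
IL8, other probe: caagaatttctcagtgaagatgccagtgaa
The other probe gave 1.41 ± 0.62 at the day 5 anastomosis and -1.49 ± 0.62 at day 14. CXCR2, the receptor of IL-8 on neutrophils, has no interleukin name and was on the neutrophil marker list. It fell in 3 of the 4 comparisons with the control: by 2.15 at the day 14 anastomosis (-2.15 ± 0.30, adjusted p = 0.00172), by 1.09 in the day 5 downstream vein (-1.09 ± 0.30, adjusted p = 0.0394) and by 1.42 in the day 14 downstream vein (-1.42 ± 0.30, adjusted p = 0.0432).

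The values of CXCR2 in the day 14 controls were 10.70, 13.74, 11.21 and 13.10, and at the anastomosis 9.24, 10.96, 8.65 and 11.26. At each graft site and day all 4 pairs were lower than their controls, with differences of -2.77 to -0.08, including the day 5 anastomosis, which was not called. The call at the day 14 anastomosis held under all 4 other scalings of the arrays, with -1.49 to -2.23, and in the downstream vein under 3 of 4 at day 5 and 2 of 4 at day 14. Over 16 alternatives in all, these calls held in 13, 9 and 5. Of 8 listed neutrophil markers 2 were measured, the other being FCGR3A, an Fc receptor that macrophages and natural killer cells also carry. FCGR3A was called higher at the day 14 anastomosis (0.87 ± 0.24) and in the day 5 downstream vein (0.86 ± 0.24, adjusted p = 0.0430).

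**Figure D3:**
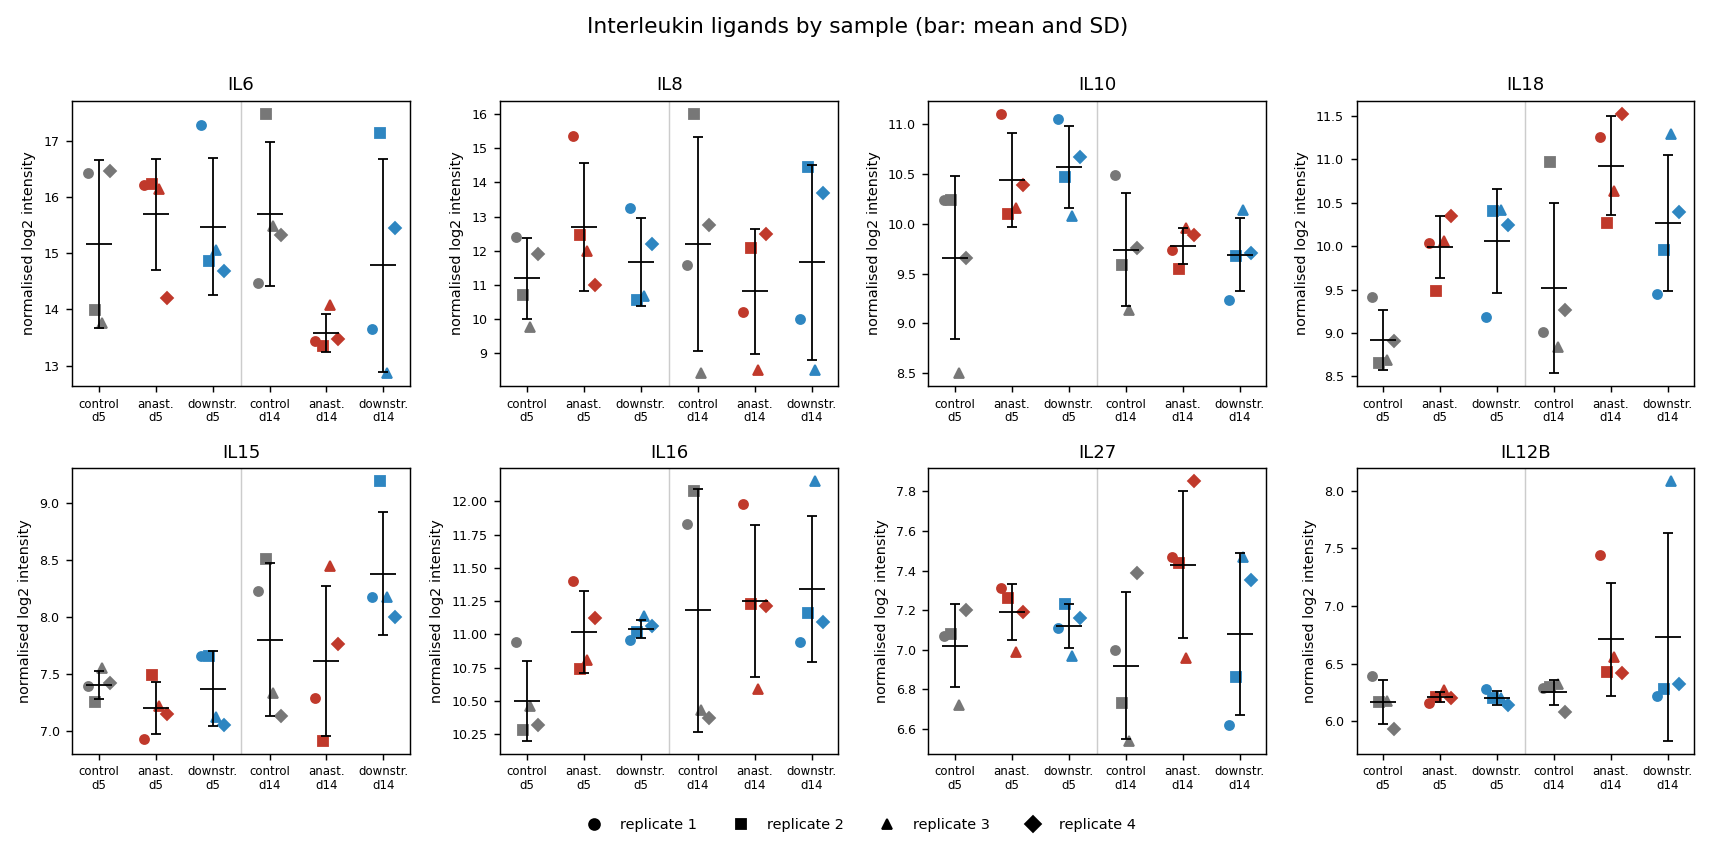
Normalised log2 intensity of 8 ligands in each of 24 samples by site and day (colours and symbols by site and replicate; bar, mean and SD, n = 4). IL8 spans 8.42 to 16.02 and IL6 12.87 to 17.48, with the day 14 control of replicate 2 the highest sample of both, while IL27 stays within 6.54 to 7.85.

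IL10, which restrains macrophages and T cells, was higher in the graft veins at day 5 without passing the test. Day 5 controls gave 10.24, 10.24, 8.50 and 9.66, anastomoses 11.11, 10.10, 10.16 and 10.39 and downstream veins 11.05, 10.47, 10.08 and 10.67. The differences were 0.78 ± 0.29 (3 of 4 pairs higher, adjusted p = 0.0733) and 0.91 ± 0.29 (4 of 4 pairs, adjusted p = 0.0654). The largest pair differences, 1.66 and 1.57, were those of replicate 3, whose control was the lowest. Single-channel quantiles gave 0.99 downstream with an adjusted p of 0.0430. At day 14 the differences were 0.04 ± 0.29 and -0.05 ± 0.29, and the anastomosis range of 9.55 to 9.96 did not overlap that of day 5 (10.10 to 11.11, difference -0.66 ± 0.23, adjusted p = 0.459).

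IL15, a ligand of the common gamma chain that keeps natural killer and memory T cells alive, split by replicate number at the day 14 anastomosis. Its controls were at 8.23, 8.51, 7.33 and 7.13 and its anastomoses at 7.29, 6.91, 8.45 and 7.76, so replicates 1 and 2 were lower (-0.94 and -1.60) and replicates 3 and 4 higher (1.12 and 0.63). The pooled difference was -0.20 ± 0.35 (adjusted p = 0.794), while replicates 3 and 4 alone gave 0.87 with an adjusted p of 0.0182. In the downstream vein IL15 was at 7.66, 7.66, 7.12 and 7.05 on day 5 and at 8.17, 9.19, 8.17 and 8.0 on day 14. These groups do not overlap, and the difference of 1.01 ± 0.29 had an unadjusted p of 0.00785 and an adjusted p of 1.

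IL7, a stromal cytokine that maintains T cells, was well above background in 0 of 4 day 5 controls and in 4 of 4 samples at each graft site on day 14. It was so in 1 of 4 day 14 controls and 1 of 4 day 5 anastomoses. Controls were read in Cy3 and graft samples in Cy5, so in these counts site and dye cannot be told apart. In the day 14 downstream vein IL7 was at 7.30, 7.05, 6.70 and 6.40 against 6.74, 6.67, 6.04 and 6.09 in the controls, higher in 4 of 4 pairs, by 0.48 ± 0.14 (adjusted p = 0.126). Against the day 5 controls, whose signal was near background, the mean of the day 5 downstream vein was 1.08-fold higher (limma adjusted p = 0.671). There 3 of 4 samples were well above background. Its receptor IL7R ranged from 6.07 to 7.82, with the highest value in the day 14 control of replicate 2. IL2 and its receptor chain IL2RA, both marks of T cell activation, stayed within 6.13 to 6.57 and 6.09 to 6.64, and each was well above background in about the same share of samples, 12 and 13 of 24.

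IL2RG, the common gamma chain itself, was nearly equal in the 4 day 5 controls, at 6.59, 6.59, 6.62 and 6.6. Only 2 of these 4 controls were well above background, so these values lie near it. The day 5 anastomoses were at 6.95, 6.6, 6.98 and 6.91, higher in 4 of 4 pairs, by 0.26 ± 0.22 (adjusted p = 0.480). The highest value of IL2RG, 7.75, was that of the day 14 downstream vein of replicate 3. The T and natural killer cell list, of which 10 of 13 genes were measured, had a median of 0.30 at the day 5 anastomosis. There 0 were called and 2 had an unadjusted limma p under 0.05. At the day 14 anastomosis the median was -0.02 with 2 called higher, CD4 (0.42 ± 0.12) and NKG7 (0.86 ± 0.25). Over 16 alternative settings these calls held in 6 and 5. CD4 was well above background in 18 of 24 samples. Of 12 related haematopoietic cytokine genes 4 were tested: KIT, the stem cell factor receptor of mast cells, was higher at the anastomosis on day 5 (1.12 ± 0.28) and day 14 (1.18 ± 0.28, adjusted p = 0.0206), and CSF2, CSF3 and KITLG did not pass there. Of 3 measured mast cell markers HDC and KIT were called higher at the anastomosis on both days, where 19.3 and 8.81% of all features were called. The third, MS4A2, was not called and gave -0.43 at day 5 and -0.06 at day 14. The part of mast cells was not tested.

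**Figure D4:**
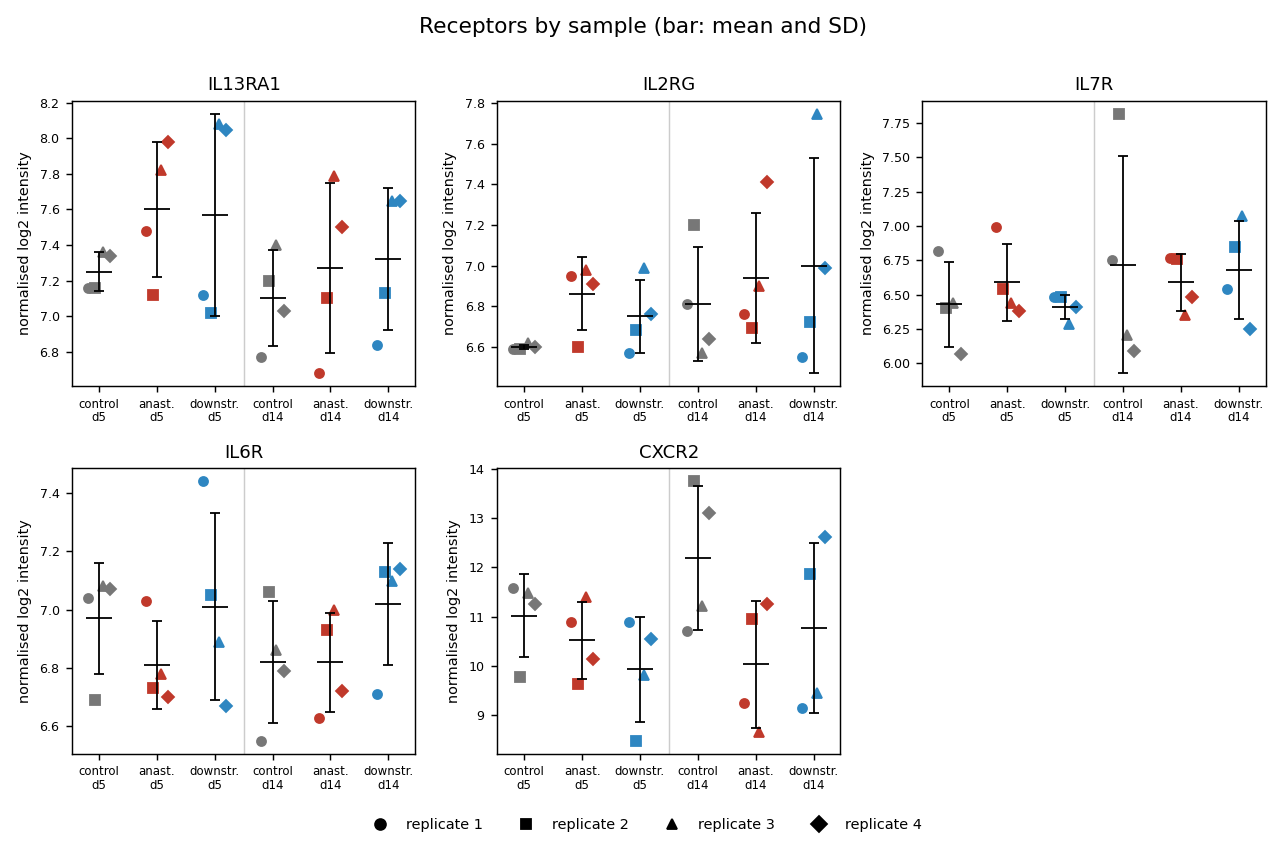
Normalised log2 intensity of IL13RA1, IL2RG, IL7R, IL6R and CXCR2 in each of 24 samples by site and day (grey, jugular control; red, anastomosis; blue, downstream vein; symbols, replicates; bar, mean and SD, n = 4). The 4 day 5 controls of IL2RG lie between 6.59 and 6.62, with only 2 of them well above background. CXCR2 is highest in the day 14 controls of replicates 2 and 4, at 13.74 and 13.10.

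IL12B, the p40 subunit of IL-12 and IL-23, was well above background in 0 of 4 day 5 anastomoses and in 4 of 4 at day 14. The day 5 values were 6.16, 6.21, 6.27 and 6.20 and the day 14 values 7.44, 6.43, 6.56 and 6.42, which do not overlap. The day 14 mean was 1.42-fold higher (limma adjusted p = 0.631), with 1 sample at 7.44 and the others at 6.42 to 6.56. This compares mean signals, and the day 5 signal was near background. All 4 day 14 anastomoses also lay above all 4 controls (6.08 to 6.32), by 0.47 ± 0.29 (adjusted p = 0.347), and 1 downstream sample reached 8.08. IL12RB2, a chain of the IL-12 receptor, spanned 6.04 to 7.0 and was not called (0.19 ± 0.08 in the day 14 downstream vein, adjusted p = 0.300).

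IL17RB, a receptor for IL-17B and IL-25, rose in the day 5 downstream vein. The controls were at 7.93, 7.78, 7.93 and 7.49 and the downstream samples at 8.54, 8.30, 8.27 and 7.75, higher in 4 of 4 pairs, by 0.27 to 0.61. The difference was 0.43 ± 0.07 (SE), or 1.35-fold, with an adjusted p of 0.00709, although the lowest downstream sample lay inside the control range. At the day 5 anastomosis it was 0.08 ± 0.07, and the direct comparison of anastomosis with downstream vein gave -0.35 ± 0.07, with an unadjusted p of 0.000283 and an adjusted p of 0.424. At day 14 the downstream difference was 0.12 ± 0.07 (adjusted p = 0.474).

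The call of IL17RB was lost without replicate 2, 3 or 4 (0.41, 0.46 and 0.49, adjusted p from 0.0650 to 0.103), without the replicate block (adjusted p = 0.249) and in the deposited value table (0.40, adjusted p = 0.113). Replicates 1 and 2 alone gave 0.56 (adjusted p = 0.637) and replicates 3 and 4 alone 0.30 (adjusted p = 0.144). Its probe ends in atggcccctccttggctgtgaacttcacct, shown because it carries this call, without AATAAA.

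Other genes of the interleukin-17 system carried gene numbers or descriptions on the array instead of their names. IL17RA, the shared IL-17 receptor chain, rose at the day 5 anastomosis, from 11.98, 11.49, 11.77 and 11.48 in the controls to 13.55, 12.64, 13.07 and 12.86. The groups do not overlap and the difference was 1.35 ± 0.29 (2.54-fold, adjusted p = 0.00567). Replicates 1 and 2 alone gave 1.35 (adjusted p = 0.13) and replicates 3 and 4 alone 1.34 (adjusted p = 0.00762). IL17RA gave 0.94 ± 0.29 in the day 5 downstream vein (adjusted p = 0.0610) and 0.80 ± 0.29 at the day 14 anastomosis (adjusted p = 0.102), where its control of replicate 2 was at 14.00 and the other 3 at 11.57 to 12.55.

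IL17D, a ligand of tissue cells rather than of T cells, fell at the day 5 anastomosis, from 13.25, 12.67, 13.33 and 13.50 to 11.25, 10.95, 11.95 and 12 (-1.65 ± 0.31, 3.14-fold lower, adjusted p = 0.00271). IL17D was singled out after its values were seen. Of 12 interleukin genes outside the name rule 10 were tested, and IL17RA and IL17D were the 2 called in any comparison, both at the day 5 anastomosis, where 19.3% of all features were called. IL17A itself was well above background in 2 of 24 samples, and with no filter on dim probes it gave 0.39 at the day 5 anastomosis (adjusted p = 0.0289), where 1 of 4 samples was above background.

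IL16, a chemoattractant for CD4 cells that is stored as a precursor, gave 10.94, 10.28, 10.46 and 10.32 in day 5 controls and 10.96, 11.02, 11.14 and 11.06 downstream. All downstream values lay above all controls, by as little as 0.02, with a difference of 0.55 ± 0.36 (adjusted p = 0.368). At the day 5 anastomosis all 4 pairs were higher, by 0.35 to 0.80 (0.52 ± 0.36, adjusted p = 0.372). At day 14 controls of replicates 1 and 2 were at 11.83 and 12.08 and those of replicates 3 and 4 at 10.43 and 10.37, so that the sites overlapped.

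**Figure D5:**
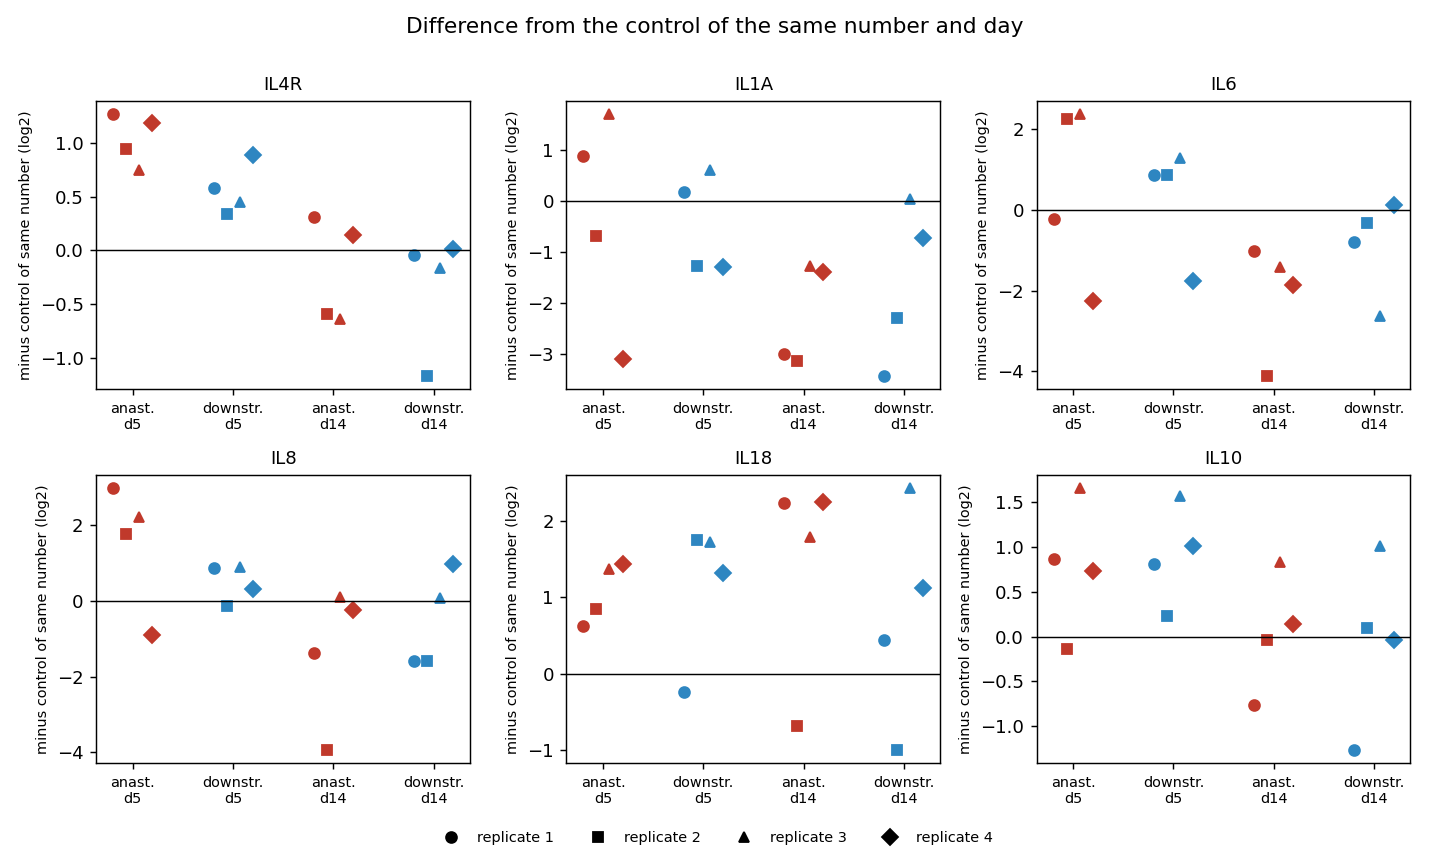
Difference of each graft vein sample from the jugular control of the same number and day (log2) for IL4R, IL1A, IL6, IL8, IL18 and IL10 (red, anastomosis; blue, downstream vein; symbols, replicates; line, no difference). At the day 5 anastomosis all 4 IL4R and IL18 pairs lie above the line, and at the day 14 anastomosis all 4 IL1A and IL6 pairs lie below it.

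A few members were far more variable between samples of a group than the rest. The SD within groups was 2.16 for IL8, 1.40 for IL1A and 1.29 for IL6, at percentiles 99.9, 99.4 and 99.2 of all 33390 features, and 1.04 for IL6ST, at percentile 97.6. The median was 0.49 over the 12 tested ligands and 0.30 over the 9 receptor chains, against 0.34 over all features. IL13 and IL2RA, near background, had SDs of 0.12 and 0.13. The standard errors of the site differences were 0.63 to 0.75 for IL1A, IL6 and IL8 and 0.07 to 0.20 for IL17RB, IL4R and IL6ST.

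The day 14 control of replicate 2 stood apart in these genes. Of the 8 control samples it was the highest for 8 of 21 members, against 0 to 4 for each of the others, and the lowest for 0. Its IL8 was 16.02, its IL6 17.48, its IL18 10.97, its IL4R 13.97 and its IL7R 7.82. In the same sample the mean of the contractile smooth muscle markers was 13.44, the lowest of the 8 controls, as was that of the macrophage markers at 10.37. That of the adipocyte markers was 14.44, that of the T and natural killer cell markers 9.64, that of the B cell markers 8.15 and that of the neutrophil markers 13.67, the highest of the 8 controls in each case. The part of these cells in its interleukin values was not tested. Without this sample IL18 was called at the day 14 anastomosis, IL1A and IL6ST were not, IL4R was called in the day 5 downstream vein (0.57, adjusted p = 0.0372) and IL7 in the day 14 downstream vein (0.60, adjusted p = 0.0496).

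Between days no member was called at any site. Limma called 0 of 21 members in the jugular control, with 0 at an unadjusted p under 0.05 and 0% of all features called. At the anastomosis it called 0 of 21, with 5 at an unadjusted p under 0.05, namely IL6, IL18, IL10, IL4R and IL1A, of which IL18 had the higher value at day 14 (0.94 ± 0.30, adjusted p = 0.431) and the other 4 the lower. In the downstream vein 0 of 21 were called, with 2 at an unadjusted p under 0.05, IL15 and IL10, and 0% of all features. The changes of the site differences from day 5 to day 14 gave 0 of 21 calls both for the anastomosis, with 4 members at an unadjusted p under 0.05, and for the downstream vein, with 3, where 0% of all features were called. The deposited value table, which is scaled by the authors, called IL1A, IL6 and IL8 lower and IL12B higher at the day 14 anastomosis against day 5, a comparison in which limma on that table called 3074 of all features and limma on the scanner values 2.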

How the data were processed

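RNA of 24 pig vein samples was hybridised to 16 Agilent arrays of 2 colours, of which the labels give the dye of each sample. The deposited scanner files hold intensity values per spot and channel from Agilent Feature Extraction (version 10.5.1.1 in the file headers). A table of processed log2 values was also deposited by the authors, whose scale and centring are not stated. Its columns had medians of 7.34 to 7.42 and correlated with log2 processed signals at 0.964 to 0.994. It served as an alternative.

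With limma 3.58.1 in R 4.3.3, intensities were corrected with normexp (offset 50), normalised by loess within arrays and Aquantile between them, and each sample's own channel was taken as log2. Control spots had no weight and flagged spots were left out. Members were found by probe names, or a bracketed symbol in the description. Named with every value were the called members and a fixed list of interleukins and receptors. Sample values of IL7, IL12B, IL27, IL17D and CXCR2, which are neither called members nor on that list, were added after the results were seen. Of 43603 probes, 33390 features passed the filter of 4 samples well above background. Site comparisons used a block per replicate number and day (12 residual degrees of freedom). Samples of the same number and day deviated together (24 of 24 correlations over 0.1, 0.192 to 0.815). For the day comparisons 11 of 12 correlations passed 0.1, and no block was used. Whether samples come from separate animals is not stated beyond the design text, so p-values measure the spread between these samples. The code was tested on simulated data. Members and lists were chosen with earlier results of these data known. The number of arrays limits the precision. The cell type lists were of smooth muscle, endothelium, macrophages, neutrophils, T and natural killer cells, B cells, mast cells, adipocytes and fibroblasts.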

Additional observations from a re-analysis of the deposited data

Results flagged for a closer look

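Of 114 groups of 4 samples tested for 19 named genes, 8 held a sample far from the other 3, by Dixon's gap over range past its critical value, and chance alone gives about 1 in 20 such groups. For IL6, 3 groups did so: anastomosis replicate 4 at day 5 was at 14.21 with the others at 16.13 to 16.23, downstream replicate 1 at day 5 was at 17.28 with the others at 14.68 to 15.05, and anastomosis replicate 3 at day 14 was at 14.07 with the others at 13.35 to 13.48. IL6R was at 6.69 in the day 5 control of replicate 2, where the others were at 7.04 to 7.08, and at 6.71 in the day 14 downstream vein of replicate 1, where the others were at 7.10 to 7.14. The day 5 downstream vein of replicate 1 had IL18 at 9.18, below 10.24 to 10.42. IL15 in the day 14 downstream vein of replicate 2 was at 9.19, above 8.0 to 8.17, and IL17RA there was at 12.35 in replicate 1, below 13.03 to 13.09.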

How the results depend on the processing

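A result counted as reversed where its sign differed and either value was called, and differences below the threshold on both sides counted as unchanged. Counts of called members at the anastomosis (1 at day 5, 2 at day 14) and in the downstream vein (1 and 0) became 8, 6, 6 and 4 with median centring, 0 in each with replicates 1 and 2 alone, and 2, 4, 2 and 1 with replicates 3 and 4 alone. With the deposited value table the counts were 4 and 3 at the anastomosis and 2 and 1 in the downstream vein. Those called at the day 14 anastomosis were IL18 and IL27, higher, and IL1A, lower. In these 4 comparisons limma on that table called 8563, 3749, 6618 and 595 of all features. Between days the counts were 4 at the anastomosis and 1 downstream, where 3074 and 49 of all features were called. No filter gave 2 and 1 at the anastomosis, where 6160 and 2683 of all features were called. Single-channel quantiles gave 3 in the day 5 downstream vein, where 3818 were called. Without the replicate block the count was 0 at the day 14 anastomosis and 0 in the day 5 downstream vein. There the calls over all features also fell, from 2940 to 550 and from 2745 to 328. Fitting only the samples compared gave 3, 0 and 2 for the first 3 comparisons, where 9318, 57 and 3371 of all features were called. Without the jugular control of replicate 2 at day 14, a choice made after seeing the data, the counts were 1 at the day 14 anastomosis and 2 and 1 downstream. There 3489, 3245 and 784 of all features were called. Leaving out a replicate gave 1 to 2 and 0 to 1 at the anastomosis and 0 to 1 in the day 5 downstream vein. Anastomosis against downstream vein at day 14 gave 0 to 1, with IL27 called without replicate 3. In the same order, these fits called 2406 to 5132, 140 to 3062, 2 to 4438 and 0 to 439 of all features. With the replicate block the 3 day comparisons gave 0 calls each, as without it. Reversed were, at the day 14 anastomosis, IL17RB (0.32) and IL4R (0.61) with median centring, and IL15 (0.87) and IL1R2 (1.27) with replicates 3 and 4 alone, and the cause was not tested. Of 209 gene results, Feature Extraction's processed signals, the mean of all probes and the stricter filter changed no side of the threshold, 28 changed with median centring and 16 with the deposited values. Slide as a random block for the day comparisons was not run, since 7 slides for 8 samples gave no estimate of a correlation. Dim probes near background, such as IL2, IL13 and IL2RA, limit what can be seen.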
